A study of Homo sapiens with 15 samples.

Results

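The 10 genes described here are switched on by ERK signalling and mostly restrain the same pathway, and their mRNA was measured by RNA sequencing across 5 groups of KPL4 cells. KPL4 is a human breast adenocarcinoma line with amplified ERBB2, the gene of the receptor HER2. The genes were chosen by symbol, with earlier results of these data known: DUSP4, DUSP5, DUSP6, SPRY1, SPRY2, SPRY4, ETV4, ETV5, IER3 and PHLDA1. All 10 were found among the 60664 entries of the gene table, and all 10 were among the 19516 genes that passed a filter on low counts. Each group had 3 libraries. Control cells kept endogenous estrogen receptor β (ERβ, gene ESR2), and knockout cells were labelled as lacking it, with no method of knockout or promoter of the returned ERβ named. Add-back cells were made from the knockout by transfection with ERβ, and 2 further groups were add-back cells given vehicle (DMSO) or LY500307, an agonist of ERβ. The knockout background was thus shared by 4 of the 5 groups. The labels attach 1 protocol to every library, in which cells are maintained in medium with 7% serum, insulin and hydrocortisone, and control, knockout and untreated add-back cells are taken here to be in that medium. Vehicle and LY500307 cells were instead held for 72 h without phenol red in 1% serum stripped with charcoal, followed by DMSO or 200 nM LY500307 for 24 h. The labels do not say whether the knockout cells were 1 clone, or whether the 3 libraries of a group came from separate cultures, so the spread behind each p-value may be technical.

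In the ERK pathway, receptors such as those of the EGF and FGF families activate RAS, which activates the kinases RAF, MEK and ERK in turn. Active ERK raises transcription of genes whose products damp the signal. DUSP proteins remove the activating phosphates of MAP kinases, and Sprouty (SPRY) proteins act upstream at the level of receptors, RAS and RAF. ETV4 and ETV5 are ETS transcription factors that carry the signal to further genes. IER3 is an immediate-early gene linked to cell survival, and PHLDA1 encodes a pleckstrin homology domain protein that restrains signalling by receptor kinases. The mRNA levels of such genes are widely used as a readout of ERK output, but ERK activity itself was not measured here.

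ETS and AP-1 factors are the best known transcription factors downstream of ERK, so promoter windows were searched for their motifs. RefSeq windows (GRCh38.p14) of 250 bases before a transcription start were searched for 5 of the 10 genes. These made 8 windows in all, because SPRY1 and SPRY2 have several starts. No window of DUSP4, DUSP5, ETV4, ETV5 or IER3 was searched, so the counts of matches do not cover those genes. The ETS core CCGGAA, searched on both strands, was found in 3 of the 8 windows, and 14.5% of all 35116 windows of that length hold it. The windows with the core had 68.0% to 70.4% GC and those without it 41.2% to 65.6%. The share over all windows was not matched for GC. The AP-1 motif TGANTCA was in 0 of the 8 (6.57% of all windows), and the estrogen response element, GGTCA and TGACC separated by any 3 bases, was in 0 of the 8 (0.0399% of all windows). No match overlapped another. Stretches of 30 bases around the matches are printed 5′ to 3′ on the strand of the gene, with the matched bases in capitals. PHLDA1 (chr12:76031848-76031877, minus strand) carries the core in reverse complement, with the match beginning 89 bases before the start. SPRY1 (chr4:123398307-123398336, plus strand) carries it 67 bases before its downstream start, and SPRY2 (chr13:80341251-80341280, minus strand) 142 bases before its most upstream start.
PHLDA1: gaggagaggagtTTCCGGggctcgggtccg
SPRY1: tgccctccgcagCCGGAAgggggccgcggg
SPRY2: tccctgcctcctCCGGAAaggcgagggcgc
A match is a string of letters and not a shown binding site. In knockout against control cells, PHLDA1 was higher, SPRY2 lower and SPRY1 not called.

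Library totals ran from 12614074 to 19390378 expected counts, and counts of the 10 genes in single libraries from 19 (DUSP6 in control cells) to 4988 (DUSP4 with vehicle). Levels are in CPM, counts scaled to a common library total with TMM factors, as mean ± SD over 3 libraries. Differences are log2 fold changes ± SE from edgeR's quasi-likelihood test, and a gene was called where the p adjusted by Benjamini-Hochberg over all genes tested was under 0.05. The level of ESR2 in control cells was 5.76 ± 0.867 CPM, in knockout cells 4.41 ± 1.36 CPM and in add-back cells 32.8 ± 1.94 CPM. Knockout and control libraries overlapped and did not differ at the threshold (log2 fold change -0.38 ± 0.17, adjusted p = 0.0796), so ESR2 mRNA did not set the knockout label apart. The epithelial identity of the line was present, with all 7 epithelial and HER2 amplicon markers past the filter and sums of 6560 to 6940 CPM for control, 8590 to 9460 CPM for knockout and add-back and 9670 to 10600 CPM with DMSO or LY500307. ERBB2 alone held 3300 to 6220 CPM of these sums. In knockout against control 3 of the 7 markers were called higher and 4 lower, with a median log2 fold change of -0.17. Of all genes, 23.4% were called higher there and 22.6% lower. Of 10 markers of leukocytes, endothelium and stroma, 3 passed the filter. The sum of all 10, like that of the epithelial markers without TMM factors, was 5.49 to 8.42 CPM in the 3 untreated groups and 12.7 to 15.1 CPM with vehicle or LY500307. The largest of the 10 were VWF at 2.5 to 10.1 CPM and COL1A1 at 1.91 to 4.51 CPM, each found in all 15 libraries. LUM and PDGFRB were at 0 in 12 of 15 libraries. The part of these marker differences in the results was not tested. In bulk RNA, fewer expressing cells and less RNA per cell cannot be told apart.

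**Figure D1:**
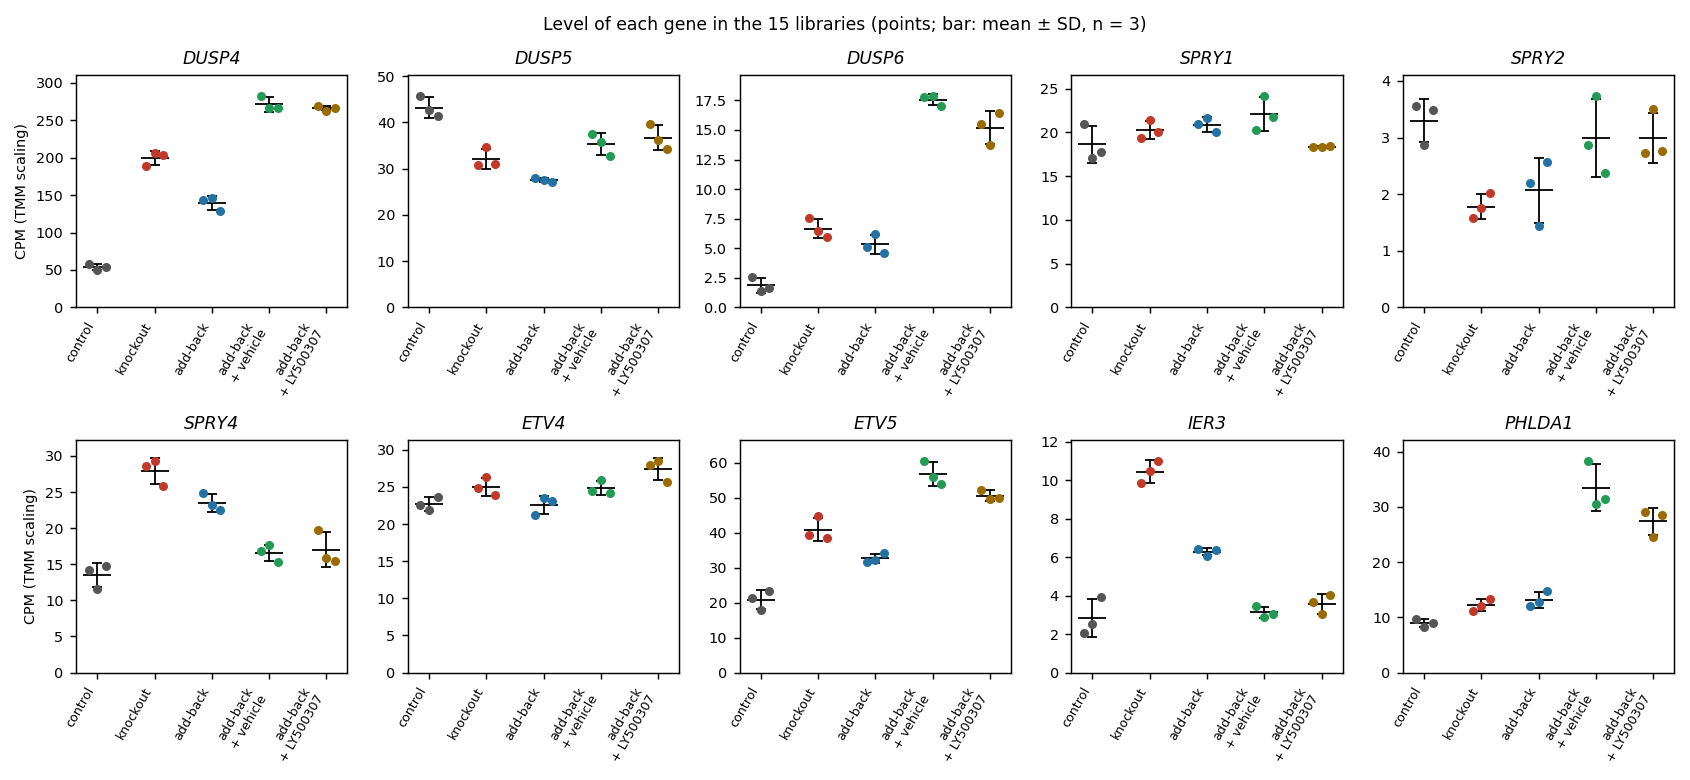
Level of each of the 10 genes (y axis, CPM with TMM scaling, from 0) in the 5 groups (x axis); points are single libraries and bars the mean ± SD of 3. DUSP4, DUSP6, ETV5 and PHLDA1 are lowest in control cells and highest with vehicle, while IER3 and SPRY4 are highest in knockout cells.

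Knockout against control set cells labelled as lacking ERβ beside cells labelled with endogenous ERβ. Of the 10 genes, 8 were called, 6 higher and 2 lower in knockout cells. In this comparison 46.0% of all genes tested were called, 23.4% higher and 22.6% lower. The median log2 fold change of the 10 was 0.71, beside 0.0 over all genes, and 4 of the 10 were called and changed at least 2-fold, as did 8.27% of all genes. Because the 10 were chosen with earlier results known, this contrast is a description and not a test.

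The phosphatase genes did not move together. DUSP4 encodes a nuclear phosphatase of ERK and related kinases (ENSG00000120875, GRCh38 chromosome 8, 29333064 to 29350668). Its 3 control libraries had 58.0, 50.5 and 53.5 CPM and its knockout libraries 189, 206 and 204 CPM. Every knockout library was thus more than 3-fold above every control library. DUSP4 rose 3.70-fold, a log2 fold change of 1.89 ± 0.05 (adjusted p = 2.81e-15). DUSP6, the cytoplasmic phosphatase specific for ERK (ENSG00000139318, chromosome 12, 89347232 to 89353271), had 2.58, 1.36 and 1.64 CPM in control libraries, against 7.55, 6.47 and 5.94 CPM in knockout libraries. Its groups did not overlap, although its control values rest on 34, 19 and 26 reads. DUSP6 rose by a log2 fold change of 1.85 ± 0.19 (adjusted p = 1.49e-07). DUSP5, a nuclear phosphatase that binds and inactivates ERK (ENSG00000138166, chromosome 10, 110497838 to 110511544), went the other way, from 45.8, 42.6 and 41.3 CPM to 30.8, 34.6 and 31.0 CPM. Its log2 fold change was -0.43 ± 0.06 (adjusted p = 2e-05).

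The Sprouty genes also parted. SPRY4 (ENSG00000187678, chromosome 5, 142310427 to 142326455) had 14.2, 11.6 and 14.7 CPM in control and 28.6, 29.3 and 25.9 CPM in knockout libraries. All knockout values lay above all control values, and SPRY4 rose 2.06-fold (log2 fold change 1.04 ± 0.10, adjusted p = 6.16e-08). SPRY2 (ENSG00000136158, chromosome 13, 80335976 to 80340951) had 3.56, 2.86 and 3.48 CPM in control and 1.57, 1.75 and 2.02 CPM in knockout libraries. It fell by 0.88 ± 0.23 on the log2 scale (adjusted p = 0.00369), on counts of 22 to 55 reads a library. SPRY1 (ENSG00000164056, chromosome 4, 123396795 to 123403760) averaged 18.6 ± 2.08 CPM (control) and 20.3 ± 1.02 CPM (knockout). These groups overlapped and the difference of 0.13 ± 0.08 was not called (adjusted p = 0.226). Without control replicate 1 it was 0.21 and was called (adjusted p = 0.0411).

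Of the ETS factors only ETV5 was called. ETV5 (ENSG00000244405, chromosome 3, 186046308 to 186110318) had 21.3, 17.9 and 23.4 CPM in control and 39.3, 44.7 and 38.6 CPM in knockout libraries. It rose 1.95-fold (log2 fold change 0.96 ± 0.08, adjusted p = 9.92e-09), with no overlap. ETV4 (ENSG00000175832, chromosome 17, 43527844 to 43579620) was at 22.7 ± 0.892 and 25.0 ± 1.24 CPM. Its difference of 0.13 ± 0.06 was not called (adjusted p = 0.102), and it pointed down, at -0.15, with offsets for GC content and transcript length (adjusted p = 0.081). ETV4 overlaps DHX8 on the opposite strand, which averaged 51.3 CPM, and whether counting used strand is not given in the sources used here, so DHX8 reads may be part of the ETV4 values. No such partner of another of the 10 genes exceeded 1 CPM.

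IER3 (ENSG00000137331, chromosome 6, 30743199 to 30744554) had control values of 2.05, 2.50 and 3.92 CPM and knockout values of 9.83, 10.5 and 11.0 CPM. Control replicate 3 stood above the other two but below the knockout range. IER3 rose 3.64-fold (log2 fold change 1.87 ± 0.16, adjusted p = 2e-08), with a log2 fold change of 2.20 without control replicate 3. PHLDA1 (ENSG00000139289, chromosome 12, 76025447 to 76033932) moved less, from 9.62, 8.21 and 8.97 CPM to 11.2, 12.0 and 13.4 CPM. Its log2 fold change was 0.46 ± 0.13 (adjusted p = 0.00564), with no overlap.

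**Figure D2:**
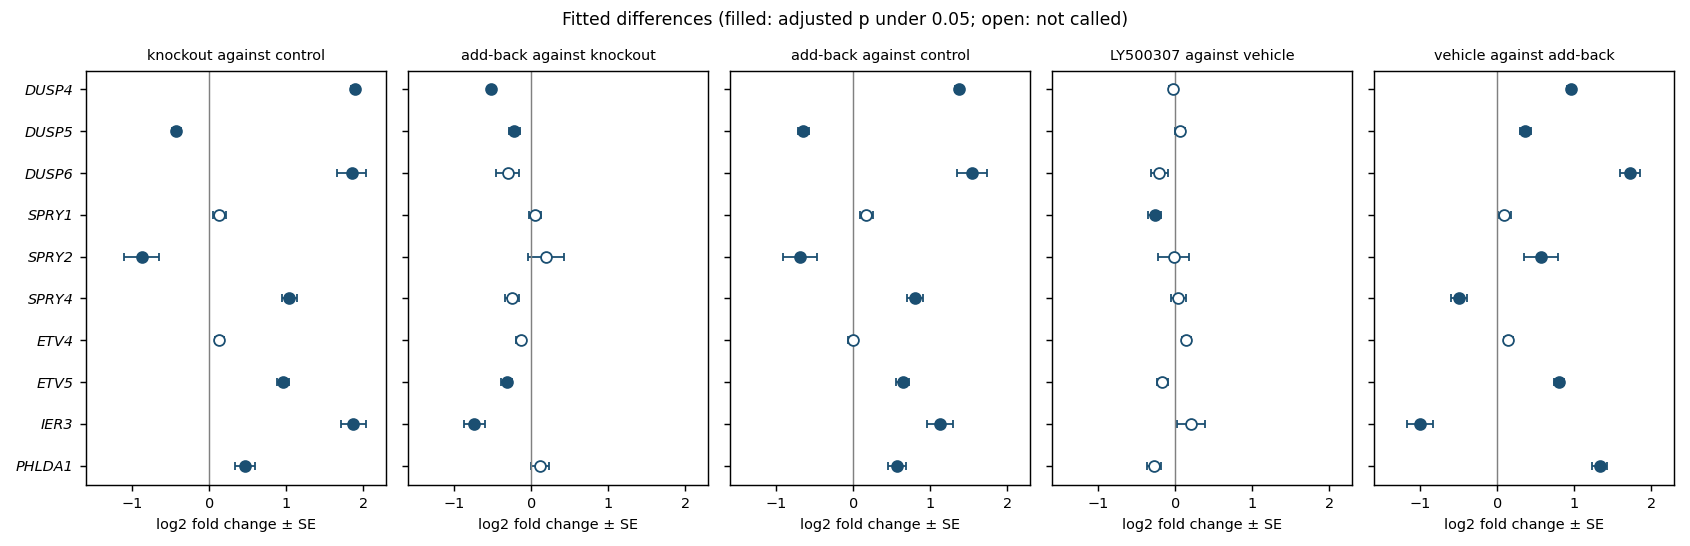
Log2 fold change ± SE (x axis) of the 10 genes (rows) in the 5 comparisons (panels); filled points were called at an adjusted p under 0.05, open points were not. DUSP4, DUSP6 and IER3 lie near 1.9 for knockout against control, and all points for LY500307 against vehicle lie between -0.3 and 0.3.

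SPRY2 lies on chromosome 13, where a long stretch was lower in knockout cells. Of the 5 tested genes on each side of SPRY2, 9 of 10 were called lower and 1 higher, against 22.6% of all genes lower and 23.4% higher. NDFIP2, an adaptor of ubiquitin ligases and the nearest tested gene on one side, changed by -1.20, and PTMAP5, a pseudogene on the other side, by -0.99. The exception was SLITRK6, a neuronal membrane protein gene, at 1.26 (adjusted p = 1.7e-08). The SPRY2 difference of -0.88 was thus close in size to those of its neighbours, which ranged from -1.28 to -0.63 without SLITRK6. In add-back against knockout cells SPRY2 was at 0.19 ± 0.24 (adjusted p = 0.649) and the neighbours at -0.15 to 0.46. Called higher there were SLITRK6 (0.46, adjusted p = 0.000757), NDFIP2 (0.35, adjusted p = 0.00681), SLITRK5 (0.23, adjusted p = 0.0145) and RBM26 (0.17, adjusted p = 0.0166). The rest were not called, and 10.4% of all genes were called higher. Copy number was not measured.

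**Figure D3:**
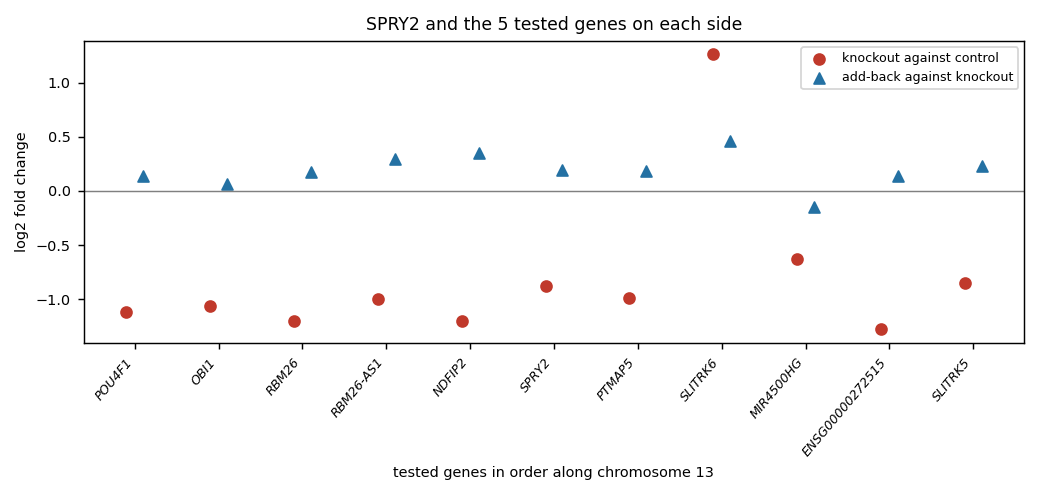
Log2 fold change (y axis) of SPRY2 and the 5 tested genes on each side in their order along the chromosome (x axis), for knockout against control (circles) and add-back against knockout (triangles). SPRY2 and 9 of its 10 neighbours lie at or below -0.63 for knockout against control, and only SLITRK6 lies above 0.

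Add-back against knockout asked what transfection of ERβ changed. No knockout group with an empty vector is labelled, so ERβ and the transfection itself cannot be told apart. Of the 10 genes, 4 were called lower and 0 higher in add-back cells by edgeR, where 19.6% of all genes were called, 9.19% lower and 10.4% higher. With DESeq2 3 were lower and 0 higher, where 2973 of all genes were called, 1829 of them higher, beside 3824 and 2030 with edgeR. With limma-voom 4 were lower and 0 higher, and at an unadjusted p under 0.05 edgeR gave 6 lower and 0 higher. For these last 2 settings the shares of all genes lower and higher are not given, so their counts cannot be judged against a background. With upper-quartile factors 42.0% of the calls over all genes were higher, with DESeq2 61.5%, beside 53.1% here. IER3 fell to 6.41, 6.08 and 6.39 CPM, below every knockout library and above every control library (log2 fold change -0.74 ± 0.14, adjusted p = 0.000921). DUSP4 fell to 143, 146 and 129 CPM (-0.52 ± 0.05, adjusted p = 4.71e-07) and ETV5 to 31.6, 32.2 and 34.1 CPM (-0.32 ± 0.07, adjusted p = 0.00413). These 3 genes were higher in knockout than in control cells and lower in add-back than in knockout cells. Their add-back values lay between those of the other 2 groups with no overlap. The 2 comparisons share the knockout libraries, and the share of all genes with this pattern is not given here.

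DUSP5 was lower in knockout than in control cells and fell further, to 28.0, 27.5 and 27.1 CPM (-0.22 ± 0.07, adjusted p = 0.0255). This call was lost with DESeq2 (adjusted p = 0.0764), without knockout replicate 2 (adjusted p = 0.178) and without add-back replicates 1, 2 or 3 (adjusted p = 0.0654, 0.0961 and 0.103). SPRY4 at -0.25 ± 0.09 was not called (adjusted p = 0.063), though its libraries did not overlap, and it was called with upper-quartile factors, without a filter, with the GC and length offsets and in the 6 libraries alone (adjusted p = 0.0258 to 0.0424). DUSP6 was at 5.32 ± 0.841 CPM against 6.65 ± 0.822 CPM, a difference of -0.31 ± 0.15 that was not called (adjusted p = 0.161). It was -0.19 without knockout replicate 1 and -0.20 without add-back replicate 3. PHLDA1, SPRY1, SPRY2 and ETV4 had differences of 0.11, 0.05, 0.19 and -0.14 and were not called.

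Add-back against control set the transfected cells beside cells labelled with endogenous ERβ. Of the 10 genes, 8 were called, 6 higher and 2 lower, where 45.8% of all genes were called, 23.2% higher and 22.7% lower. With the GC and length offsets 38.6% of all calls were higher, beside 50.5% without them. The 8 genes were those called in knockout against control, each in the same direction. This comparison shares its libraries with both others. The share of all genes called alike in both comparisons against control is not given here. DUSP6 remained 2.90-fold (log2 fold change 1.54 ± 0.19), DUSP4 2.58-fold (1.37 ± 0.05) and IER3 2.19-fold (1.13 ± 0.17) above control, with adjusted p of 2.35e-06, 5.59e-13 and 2.41e-05. SPRY4, ETV5 and PHLDA1 differed by 0.80, 0.64 and 0.57. DUSP5 was 0.65 ± 0.07 lower on the log2 scale (log2 fold change -0.65, adjusted p = 1.47e-07). SPRY2 at -0.69 ± 0.22 (adjusted p = 0.0147) was not called without control replicate 1 or 3 or add-back replicate 2 (adjusted p = 0.0513, 0.0556 and 0.112). ETV4 at -0.01 was not called, but was called lower with the offsets (-0.33, adjusted p = 0.000483). SPRY1 at 0.17 was not called, and was called with the offsets (0.22, adjusted p = 0.026) and without control replicate 1 (0.27, adjusted p = 0.00959).

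LY500307 against vehicle asked what the agonist changed in add-back cells. Of the 10 genes 1 was called, SPRY1, lower with LY500307, where 7.12% of all genes were called, 4.77% higher and 2.35% lower. With the offsets 51.9% of all calls were higher, beside 67.0% without them. SPRY1 had 20.3, 24.2 and 21.8 CPM with vehicle and 18.3, 18.3 and 18.5 CPM with LY500307. The groups did not overlap, and the difference was -0.27 ± 0.08 (adjusted p = 0.0367). Without vehicle replicate 2 it was -0.19 and not called (adjusted p = 0.281). The call was also lost with DESeq2 (0 of the 10 called, adjusted p = 0.0609), with the offsets (adjusted p = 0.151), without vehicle replicate 3 (adjusted p = 0.0605) and without LY500307 replicate 1, 2 or 3 (adjusted p = 0.13, 0.132 and 0.0954).

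DUSP4 was at 283, 266 and 266 CPM with vehicle and 269, 263 and 267 CPM with LY500307, an overlap, with a log2 fold change of -0.03 ± 0.05 (adjusted p = 0.80). PHLDA1 was at 38.3, 30.5 and 31.5 CPM against 29.1, 24.6 and 28.5 CPM, without overlap, and its -0.28 ± 0.09 was not called (adjusted p = 0.0605). It was called without a filter on low counts (adjusted p = 0.0108), and was -0.16 without vehicle replicate 1 (adjusted p = 0.387). DUSP6 (-0.21 ± 0.11) and ETV5 (-0.17 ± 0.07) had no overlap either and were not called (adjusted p = 0.271 and 0.153). DUSP6 was -0.13 without LY500307 replicate 2, and ETV5 -0.11 without vehicle replicate 1. IER3, DUSP5, SPRY4, SPRY2 and ETV4 had differences of -0.02 to 0.20, and their libraries overlapped. These misses do not show that the genes were unaffected, since an SE of 0.05 to 0.20 leaves small changes undetectable.

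Vehicle against untreated add-back compared the same cells after the depleted medium and DMSO with cells in growth medium. Serum, phenol red, other supplements, DMSO and any difference between the experiments cannot be told apart. Of the 10 genes, 8 were called, 6 higher and 2 lower, where 48.1% of all genes were called, 26.4% higher and 21.6% lower. With the offsets 65.9% of all calls were higher, beside 55.0% without them. The median log2 fold change of the 10 was 0.46, beside 0.01 over all genes.

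DUSP6 rose most, from 5.11, 6.24 and 4.60 CPM to 17.8, 17.9 and 17.0 CPM (3.28-fold, log2 fold change 1.72 ± 0.13, adjusted p = 1.7e-09). The vehicle libraries thus held DUSP6 far above every untreated library, knockout included. PHLDA1 rose 2.52-fold to 38.3, 30.5 and 31.5 CPM (1.33 ± 0.10, adjusted p = 1.73e-09). DUSP4 rose 1.95-fold (0.96 ± 0.05, adjusted p = 1.09e-11) and ETV5 1.74-fold to 60.5, 55.8 and 53.9 CPM (0.80 ± 0.07, adjusted p = 2.19e-08). In each of these 4 genes the untreated and vehicle libraries did not overlap. DUSP5 rose by 0.36 ± 0.07 (adjusted p = 0.000138), from 27.5 ± 0.405 to 35.3 ± 2.34 CPM, still below all control libraries.

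IER3 and SPRY4 fell in the same comparison. IER3 went to 3.46, 2.88 and 3.07 CPM, into the range of control cells (log2 fold change -1.01 ± 0.17, adjusted p = 4.9e-05), and the value was -0.68 with the GC and length offsets (adjusted p = 0.0021). SPRY4 went to 16.8, 17.6 and 15.3 CPM (-0.50 ± 0.10, adjusted p = 0.000211), and was -0.33 with the offsets (adjusted p = 0.00864). Of the 6 genes higher in knockout than in control cells, 4 were thus higher and 2 lower with vehicle than in untreated add-back cells. SPRY2 at 2.87, 3.74 and 2.38 CPM overlapped the untreated 2.20, 1.44 and 2.56 CPM, and its 0.57 ± 0.22 was called (adjusted p = 0.0386). That call was lost with upper-quartile factors, DESeq2, no filter, the offsets and the 6 libraries alone (adjusted p = 0.0542 to 0.12), and without add-back replicate 1 or 2 or vehicle replicate 1 or 2 (adjusted p = 0.0676 to 0.273). Without add-back replicate 2 or vehicle replicate 2 its value was 0.32 and 0.34. ETV4 at 0.14 was not called (adjusted p = 0.0799), and was called higher with the offsets (0.48, adjusted p = 4.53e-06).

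The order of the groups separated the genes into patterns, which are described here and were not tested. DUSP4, DUSP6 and ETV5 each ran control, add-back, knockout, LY500307, vehicle from low to high. Neighbours in that order overlapped only for add-back and knockout in DUSP6 and for LY500307 and vehicle in DUSP4. Vehicle stood above control 9.46-fold in DUSP6, 5.03-fold in DUSP4 and 2.72-fold in ETV5. PHLDA1 had the same ends, 3.74-fold apart, with overlapping knockout and add-back libraries in between. IER3 and SPRY4 ran control, vehicle, LY500307, add-back, knockout. Their vehicle and LY500307 libraries overlapped, and so did control and vehicle in IER3 but not in SPRY4. DUSP5 was highest in control and lowest in add-back cells, 1.57-fold apart, and SPRY2 highest in control and lowest in knockout cells, 1.85-fold apart. SPRY1 and ETV4 spanned 1.20-fold and 1.21-fold over all 5 groups.

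Pearson correlations of log2 CPM over the 15 libraries, given with no test because libraries of a group are not independent, followed these orders. DUSP6 and ETV5 had r = 0.97, DUSP4 and ETV5 0.97, DUSP4 and DUSP6 0.96, and DUSP6 and PHLDA1 0.92. IER3 and SPRY4 had 0.92. Between the sets the values were low, such as -0.01 for IER3 and DUSP6. SPRY2 ran against IER3 (-0.80) and SPRY4 (-0.77), and DUSP5 with SPRY2 (0.68). Within families the values ranged widely. In the DUSP genes DUSP4 and DUSP6 had 0.96, while DUSP5 had -0.39 with DUSP4 and -0.24 with DUSP6. In the Sprouty genes SPRY1 had 0.36 with SPRY4 and -0.18 with SPRY2. ETV4 and ETV5 had 0.71, the highest value of ETV4 with any of the other 9.

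**Figure D4:**
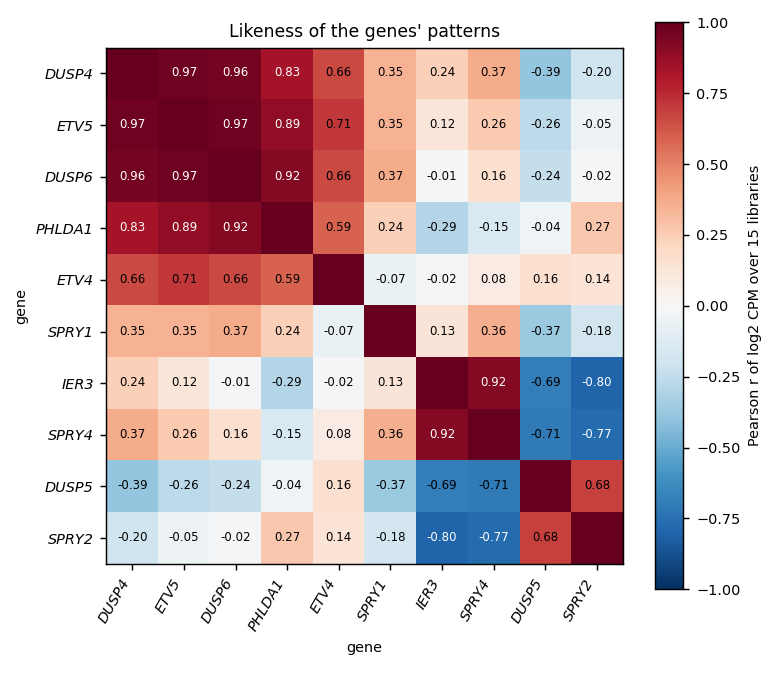
Pearson r of log2 CPM over 15 libraries between each pair of the 10 genes (both axes; colour scale from -1 to 1, values printed in the cells). DUSP4, ETV5, DUSP6 and PHLDA1 share values of 0.83 to 0.97, and IER3 and SPRY4 share 0.92 while having 0.37 or less with those 4.

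The same shapes were common among other genes. Among the 14190 genes whose log2 CPM averaged 1 or more, 465 (3.28%) had r of at least 0.9 with DUSP4, 698 (4.92%) with DUSP6, 486 (3.42%) with ETV5 and 1011 (7.12%) with PHLDA1, but 75 (0.529%) with IER3 and 38 (0.268%) with SPRY4. Those most like DUSP4 were GRAMD2B (r = 0.995), ALDH7A1 (0.986), an aldehyde dehydrogenase, and GPR137B (0.986). Most like DUSP6 were SARAF (0.989), a regulator of store-operated calcium entry, KLHL24 (0.989) and RAB5B (0.986), an endosomal GTPase. Most like IER3 was MGP (0.958), matrix Gla protein, whose means were 95.3 CPM (control), 349 CPM (knockout), 177 CPM (add-back) and 105 CPM (vehicle). Most like SPRY4 were LMO4 (0.949), a LIM domain transcription cofactor, TRIB3 (0.947), a pseudokinase of the stress response, and FYN (0.945), a SRC family kinase.

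Compared per length of transcript, the ranking of the 10 genes changed between groups. In control cells DUSP5 led at 16.9 ± 0.89 CPM per kilobase, followed by ETV4 at 11.3 ± 0.618 and DUSP4 at 10.3 ± 0.845, and DUSP6 was lowest at 0.538 ± 0.11. In knockout cells DUSP4 led at 39.0 ± 2.33, ahead of ETV5 at 13.3 ± 0.441 and DUSP5 at 12.6 ± 0.841 CPM per kilobase. With vehicle DUSP4 reached 50.9 ± 1.80 and DUSP6 6.27 ± 0.586 CPM per kilobase. DUSP4 was thus the most abundant of the phosphatase mRNAs outside control cells, and DUSP6 stayed below it in every group.

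The deposited transcript table showed which transcripts carried these levels. RSEM divides reads that transcripts share, so small shares are uncertain. DUSP5 came from 1 transcript (at least 99.4% of its counts on average in each group), and 1 transcript (ENST00000306376) of ETV5 held 91.8% ± 2.09 in control to 95.9% ± 0.933 with vehicle. The shorter DUSP4 transcript (ENST00000240101) held 6.58% ± 1.61 of DUSP4 in control, 9.27% ± 1.58 in knockout, 9.63% ± 1.19 in add-back, 4.29% ± 0.761 in vehicle and 4.91% ± 0.361 in LY500307 cells. In SPRY4 the transcript with a retained intron (ENST00000643792) held 45.9% ± 4.22 in control, 32.2% ± 5.98 in knockout and 21.9% ± 3.44 in LY500307 cells, but with vehicle it varied too much to place (24.9% ± 18.9). The main transcripts of ETV4 (ENST00000538265 and ENST00000393664) varied widely between libraries of a group, and the first held 30.8% ± 28.9 in control cells. No test was run on these shares.

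Other genes of the pathway were counted from 4 lists. The core cascade, from adaptors through RAS, RAF, MEK and ERK to the RSK kinases, had 20 of 20 genes tested, and in knockout against control 7 were higher and 5 lower with a median of 0.05, where 23.4% of all genes were higher and 22.6% lower. Its largest called differences were in KSR1, a scaffold of the cascade (0.54 ± 0.11), MAPK3, which encodes ERK1 (0.46 ± 0.07), and SOS2, a RAS exchange factor (0.37 ± 0.04), so none reached the size seen in DUSP4 or DUSP6. Other negative regulators had 5 of 19 higher and 5 lower, with a median of 0.09. Among them IL17RD (Sef), a membrane inhibitor of FGF and ERK signalling, rose 3.36-fold from 12.0 to 40.5 CPM (1.75 ± 0.06, adjusted p = 5.74e-14), and DUSP8, a phosphatase of JNK and p38, changed by 0.85 ± 0.12. PTPRR, a tyrosine phosphatase that acts on ERK, fell from 7.22 to 1.67 CPM (-2.10 ± 0.16, adjusted p = 3.51e-09).

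Other genes used as ERK outputs had 6 of 16 higher and 5 lower and a median of 0.31, beside the same 23.4% and 22.6% of all genes. EPHA4, an ephrin receptor, rose 3.54-fold from 2.41 to 8.59 CPM (1.82 ± 0.14, adjusted p = 3.03e-09). FOSL1, an AP-1 subunit induced by ERK, fell from 2.91 to 0.916 CPM (-1.65 ± 0.23, adjusted p = 7.43e-06), and ELF1, an ETS factor that lies on chromosome 13, by 1.09 (log2 fold change -1.09 ± 0.05). Upstream receptors had 8 of 14 higher and 4 lower, with a median of 0.24. ERBB4 changed by -1.14 ± 0.11, FGFR1 by 0.96 ± 0.08, MET by -0.73 ± 0.05 and ERBB2 by 0.58 (adjusted p = 7.52e-12). Below the level set for named genes, and named after their values were seen, RET was higher by 3.84 (adjusted p = 3.67e-09) and KIT was called higher with 0 reads in control cells.

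In add-back against knockout cells the core cascade had 4 higher and 2 lower, other negative regulators 5 and 4, other outputs 1 and 4, and receptors 3 and 5, where 10.4% of all genes were higher and 9.19% lower. PTPRR rose 7.90-fold to 13.3 CPM (2.98 ± 0.14, adjusted p = 3.22e-11), past its control level, while EPHA4 fell by 1.01 (log2 fold change -1.01 ± 0.12, adjusted p = 6.21e-06), the direction of DUSP4, IER3 and ETV5. In add-back against control the lists had 9 and 4, 9 and 5, 4 and 6, and 7 and 4 genes higher and lower, where the shares of all genes were 23.2% and 22.7%. With LY500307 they had 2 and 2, 1 and 1, 1 and 0, and 2 and 1, where the shares were 4.77% and 2.35%. CCND1, the cyclin D1 gene, was the 1 output called with LY500307 (0.13 ± 0.03, adjusted p = 0.0165), and IL17RD changed by -0.23 ± 0.05 (adjusted p = 0.01).

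With vehicle against untreated add-back cells the 4 lists had 8 and 7, 5 and 8, 6 and 4, and 6 and 7 genes higher and lower, where 26.4% of all genes were higher and 21.6% lower, with medians of 0.03, -0.07, 0.14 and -0.02. EPHA4 rose 3.93-fold from 4.25 to 16.7 CPM (1.97 ± 0.11, adjusted p = 2.5e-11), as DUSP6 did. PLAUR, the urokinase receptor gene, rose 2.73-fold and LIF, a cytokine gene, 2.49-fold. LRIG1, which lowers the level of ERBB receptors, rose 2.41-fold to 174 CPM (adjusted p = 3.73e-13) and SPRY3 2.06-fold, while DUSP2 fell from 4.77 to 1.78 CPM (-1.42 ± 0.20, adjusted p = 6.81e-06). Of the receptors, MET rose 2.55-fold to 90.9 CPM, and FGFR3 fell from 14.3 to 2.08 CPM (-2.79 ± 0.18, adjusted p = 2.83e-10). SPRY4 and SPRY3 thus changed in opposite directions in this comparison.

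**Figure D5:**
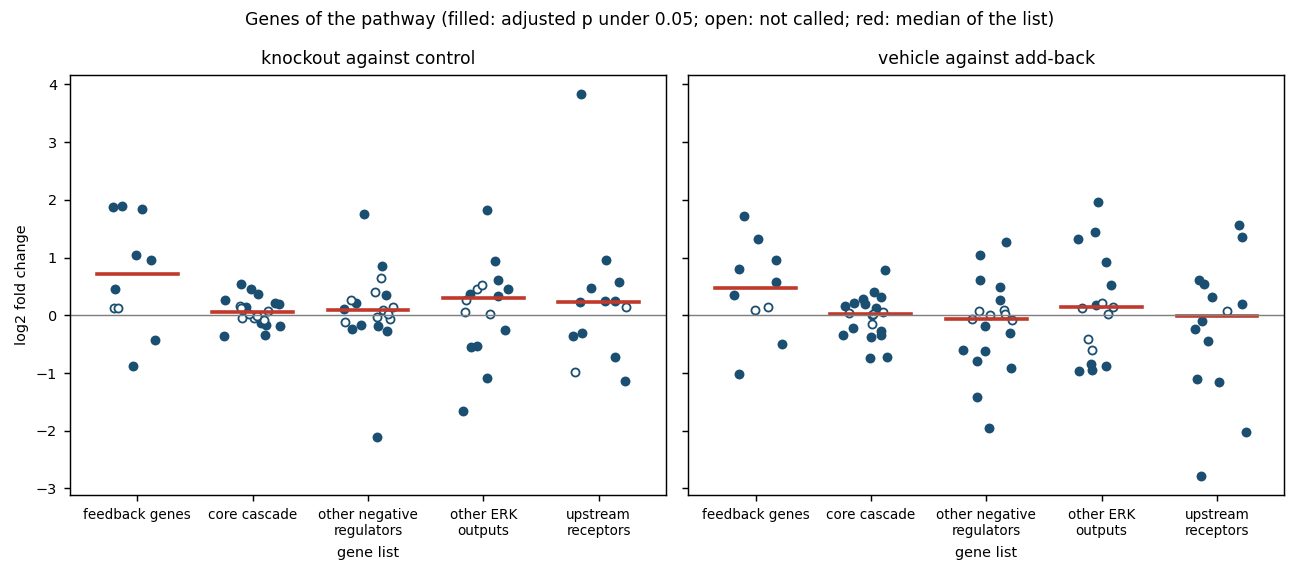
Log2 fold change (y axis) of each tested gene of 5 lists (x axis) for knockout against control (left) and vehicle against add-back (right); filled points were called, open points were not, and red bars are list medians. The 10 feedback genes have medians of 0.71 and 0.46, beside 0.05 and 0.03 for the core cascade; KIT, with 0 reads in control cells, is not drawn at left.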

How the data were processed

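The 15 libraries were made from total KPL4 RNA after removal of ribosomal RNA. Per the submitters' processing notes, the tools were FastQC, Trim Galore, GSNAP and RSEM, with GRCh38 as the genome. Versions, annotation release and use of strand are not given in the sources used here. The values the authors deposited are RSEM's expected counts for genes and for transcripts, without normalisation, and they were rounded to whole numbers for testing. Symbols matched 60652 of 60664 entries, and GENCODE 29 gave positions, lengths and GC content for 58396.

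All 15 libraries entered 1 model with a mean for each group, in edgeR 4.0.16 (R 4.3.3), after filterByExpr (19516 genes kept) and TMM scaling. Contrasts were tested two-sided with its quasi-likelihood F test. Limma-voom (limma 3.58.1), DESeq2 1.42.0, other scalings and filters, a replicate block, GC and length offsets (trends fitted per library) and leaving out each library were the alternatives. The fit was tested on simulated data. Replicate pairs differed by 2.15 to 5.44 in chi-square per degree of freedom, more than counting error, so none was taken as 1 library deposited again.

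The 10 genes, the lists and the alternatives were chosen with earlier results of these data known. The rule for named genes was all 10 genes, ESR2, up to 3 called genes per list and comparison with the largest change and an average log2 CPM of 1 or more, the 3 genes most like a described gene, and the 5 tested genes on each side of SPRY2. Not every gene under the rule is printed.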

Additional observations from a re-analysis of the deposited data

How the results depend on the processing

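For knockout against control, calls of the 10 genes were kept in 90 of 90 values from 9 alternatives of normalization, tool, filter, libraries and composition, and in 59 of 60 values with 1 library left out, SPRY1 being the exception. ETV4 there turned from 0.13 to -0.15 with GC and length offsets. The other values that changed sign were called under neither setting. With the offsets, LY500307 against vehicle turned for DUSP5 (-0.02), ETV4 (-0.02), SPRY2 (0.02) and SPRY4 (-0.05), and for SPRY2 also without a filter (0.01). Without a filter DUSP4 was there at 0.0, and with a CPM of at least 1 in 3 libraries SPRY2 was at 0.0. With 1 library left out the ranges were -0.03 to 0.01 for DUSP4, -0.14 to 0.19 for SPRY2 and -0.07 to 0.12 for SPRY4, and in vehicle against add-back -0.01 to 0.12 for SPRY1. In add-back against control ETV4, at -0.01, was 0.01 with RLE factors, DESeq2 and the 6 libraries alone, 0.02 without a filter, and -0.02 to 0.06 with 1 library left out. The numbers of called genes among the 10 with 1 library left out were 8 to 9 for knockout against control, 3 to 4 for add-back against knockout, 7 to 8 for add-back against control, 0 to 1 for LY500307 against vehicle and 7 to 8 for vehicle against add-back. The calls over all genes were 7946 to 8491, 2918 to 3596, 7826 to 8401, 299 to 1844 and 8018 to 8934 in that order. For LY500307 against vehicle the number among the 10 was 0 with DESeq2, 2 without a filter on low counts and 0 with GC and length offsets, beside 1. Over all genes that comparison gave 1389 calls, 283 with the offsets and 299 to 1844 with 1 library left out (403 without vehicle replicate 1, 299 without vehicle replicate 2, 586 without LY500307 replicate 1 and 487 without LY500307 replicate 2), so its background share rests on the setting. The 4 pathway lists' counts stayed within 1.5 times under RLE and upper-quartile factors, and the genes' mean levels moved by less than 1 SD under RLE scaling.

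Replicate numbers did not pair the libraries: after group means were removed, same-numbered libraries of different groups correlated at -0.0952 to 0.0603 over 30 pairs, and 3 of 15 libraries correlated best with their own number. With the replicate number as a block, the calls among the 10 genes were 8, 4, 8, 1 and 7 in the order above, SPRY1 changing places with PHLDA1 for LY500307 (adjusted p = 0.0529 and 0.0471) and SPRY2 not being called with vehicle (adjusted p = 0.0541). Depth limits SPRY2, with 22 to 70 reads a library, and DUSP6 in control cells, with 19 to 34.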
